A study of Mus musculus with 10 samples.

Results

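Sphingosine-1-phosphate (S1P) and lysophosphatidic acid (LPA) are small lipids that act outside the cell through G protein-coupled receptors, and the 10 mouse genes S1pr1 to S1pr5 and Lpar1 to Lpar5 encode these receptors. The 10 genes were taken by their symbols from 24421 rows of a gene count table, 5 of them for S1P and 5 for LPA, and all 10 were present. S1pr3 was the highest of these receptors per kilobase in every nodose pool and was lower in every jugular pool. Lpar3 was present in every jugular pool and at or near 0 in every nodose pool. Lpar1 was present in both ganglia, S1pr2 in some pools of each, and the remaining 6 receptors were low or found in single pools.

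As background, S1P is made inside cells by sphingosine kinases and carried out by transporters, and LPA is made mainly outside cells by the enzyme autotaxin, the product of Enpp2. S1P receptors couple to Gi, Gq and G12/13 proteins in different mixtures, with S1PR1 held to Gi alone. LPA receptors 1 to 3 draw on the same classes, with LPA receptor 3 coupled to Gq and Gi. Both lipids are known to excite or sensitise sensory neurons and are released in inflamed tissue and by platelets.

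The vagal sensory ganglia of mice were dissociated and single neurons were picked from the caudal (nodose) and rostral (jugular) ends of the fused ganglion, pooled, and sequenced after low input cDNA amplification. There were 10 pools in 5 groups of 2. In the Trpv1 selection the mice carried Cre driven from the Trpv1 gene and a tdTomato reporter in the Rosa26 locus, Gt(ROSA)26Sor tm14 (CAG-tdTomato), so that red cells express Trpv1 or once did. From these mice came pools of 30 and 30 tdTomato-positive nodose neurons, 30 and 30 tdTomato-positive jugular neurons, and 15 and 15 tdTomato-negative nodose neurons. In the capsaicin selection, wild-type C57BL/6 mice gave pools of 14 and 15 nodose neurons that responded to capsaicin and to α,β-methylene-ATP, and 15 and 16 jugular neurons that responded to capsaicin and not to α,β-methylene-ATP. No group received any other treatment, and ages were not given in the sources used here. The selection went together with strain, sequencing core and depth of sequencing, and the 4 cannot be told apart. The tdTomato-positive and tdTomato-negative pools came from the same 2 mice and nothing states that replicates were separate animals, so p-values measure the spread between pools only.

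Total counts were 148452506 to 167704327 in the 6 pools of the Trpv1 selection and 17666710 to 30810863 in the 4 capsaicin pools. Levels are given as CPM, counts scaled to a common library size with size factors over all 10 pools, and 3 counts, taken as the least that can be told from 0, stood at 0.0116 to 0.0154 CPM in the 6 pools of the Trpv1 selection and at 0.118 to 0.176 CPM in the 4 capsaicin pools. Scaling by plain totals instead multiplied the values of nodose capsaicin pool 2 by 0.555 and those of the other 9 pools by 1.07 to 1.64, so this pool's levels depended most on the scaling. The labels were checked with known markers. P2rx2, which marks nodose neurons, was at 61.4 to 548 CPM in the nodose pools and under 1 CPM in the jugular pools. In the capsaicin selection the neurons were picked by their response to the P2X agonist α,β-methylene-ATP, so P2rx2 was no independent check there. Prdm12 and Tac1, which mark jugular neurons, were at 22.2 to 147 and 249 to 1080 CPM in the jugular pools and under 1 CPM in the nodose pools. The paper reported Prdm12 as a jugular gene from these same pools, so it was no independent check of the labels. Trpv1 was at 17.8 to 248 CPM in the 8 selected pools and at 0.0348 and 0.0334 CPM in the tdTomato-negative pools. Among the tdTomato-positive pools it was at 202 and 118 CPM in nodose and at 17.8 and 25.8 CPM in jugular neurons. All 6 general neuron markers were above the floor in all pools. The 7 red blood cell markers stayed at 0, and 6 of 8 macrophage markers, Csf1r and Ptprc among them, never passed 3 counts. Cd68 stood at 75.7 CPM in nodose capsaicin pool 1 and 17.9 CPM in jugular capsaicin pool 1, and at 4.66 CPM or less elsewhere. Of 12 markers of satellite glia and Schwann cells, 8 were above 3 counts in all pools, with sums of 1623 to 4072 CPM. The fibroblast marker Dcn reached 239 CPM in jugular capsaicin pool 1. The part of RNA from other cells in these pools was not tested.

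The receptors of these 2 lipids are related in sequence, and a single codon is known to help set which lipid is bound. Among S1pr1 to S1pr5 the coding sequences (GENCODE vM21) shared 48.2% to 59.2% of aligned bases, among Lpar1 to Lpar3 56.7% to 59.6%, and between these families 42.4% to 50.5%. Lpar4 and Lpar5 shared 45.3% with each other and 32.3% to 38.7% with the remaining 8. In the aligned proteins 9 columns held one residue in all of S1pr1 to S1pr5 and another in all of Lpar1 to Lpar3. In 1 of the 9 the residue was glutamate in the S1P receptors and glutamine in the LPA receptors, the exchange known from mutant receptors to swap the preferred lipid. The coding stretches around it are shown so that the members described below can be told apart by ligand, with that codon in capitals and 21 bases on each side. It is codon 121 of S1pr1, 109 of S1pr2, 116 of S1pr3, 125 of S1pr4, 112 of S1pr5, 125 of Lpar1, 105 of Lpar2 and 106 of Lpar3, counted from the start codon.
S1pr1: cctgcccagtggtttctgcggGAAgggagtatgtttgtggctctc
S1pr2: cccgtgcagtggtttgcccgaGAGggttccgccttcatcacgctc
S1pr3: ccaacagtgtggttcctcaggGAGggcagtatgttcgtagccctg
S1pr4: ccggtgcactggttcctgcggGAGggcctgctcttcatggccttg
S1pr5: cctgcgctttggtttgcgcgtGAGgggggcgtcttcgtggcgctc
Lpar1: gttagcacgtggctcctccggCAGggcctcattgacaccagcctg
Lpar2: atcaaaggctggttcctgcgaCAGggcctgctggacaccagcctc
Lpar3: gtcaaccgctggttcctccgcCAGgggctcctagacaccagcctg

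**Figure D1:**
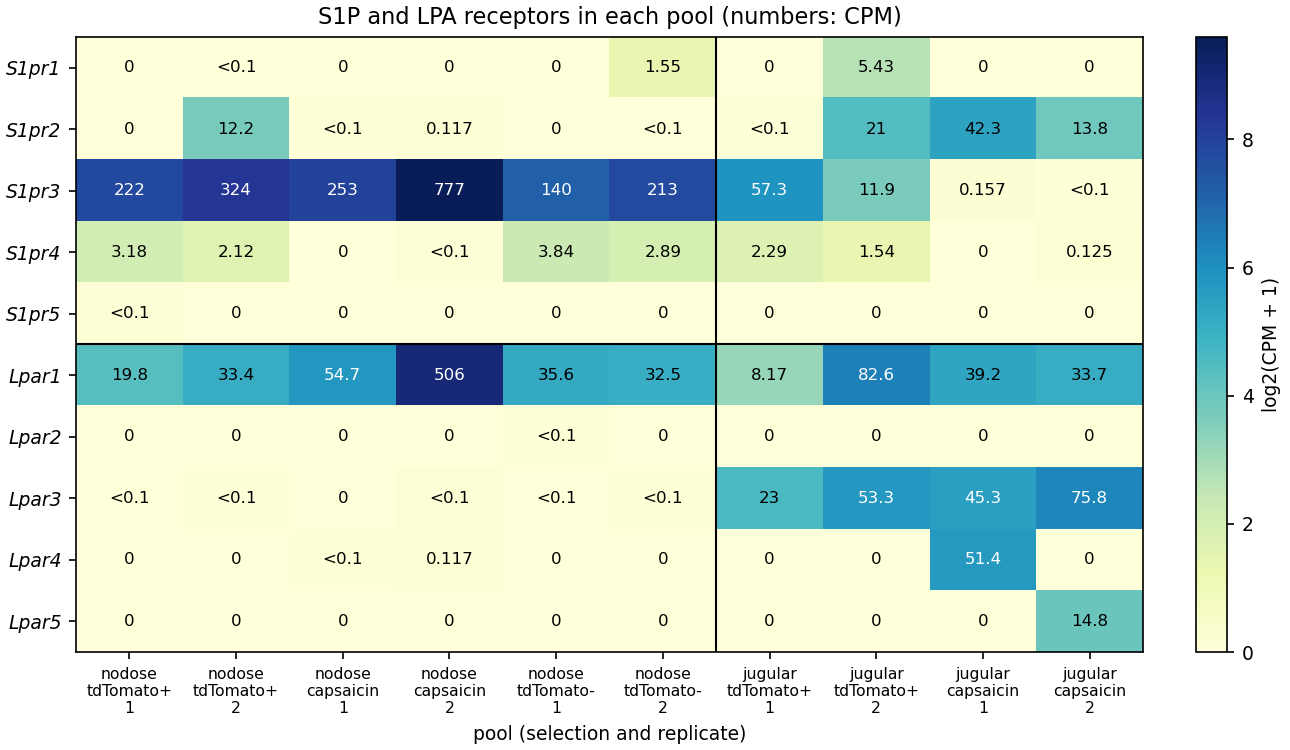
Level of each of the 10 receptor genes (rows) in each of the 10 pools (columns), as log2(CPM + 1) in colour with the CPM written in the cell, nodose pools left and jugular pools right of the vertical line. S1pr3 stood at 140 to 777 CPM in the 6 nodose pools and at 57.3 CPM or less in the 4 jugular pools, and Lpar3 stood at 23 to 75.8 CPM in the jugular pools only.

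Of the 10 receptors, 6 reached 10 CPM in at least 1 pool and 4 reached it in both pools of a group: S1pr2, S1pr3, Lpar1 and Lpar3. Lpar1 alone was above 3 counts in all 10 pools. S1pr5, Lpar2 and Lpar5 had counts in 1 pool each.

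S1pr3, a Gi-, Gq- and G12/13-coupled S1P receptor, lies on chromosome 13 from 51408639 to 51422797 (+ strand, GRCm38). It stood at 222 and 324 CPM in the tdTomato-positive nodose pools, at 253 and 777 CPM in the nodose capsaicin pools, and at 140 and 213 CPM in the tdTomato-negative nodose pools. In the jugular ganglion it stood at 57.3 and 11.9 CPM in the tdTomato-positive pools and at 0.157 and 0.0417 CPM in the capsaicin pools, the latter from 4 and 1 counts. The lowest of the 6 nodose pools was thus above the highest of the 4 jugular pools. In order of the mean, the groups ran from nodose capsaicin (515 CPM ± 370, SD, n = 2) through nodose tdTomato-positive (273 ± 72.7), nodose tdTomato-negative (176 ± 51.7) and jugular tdTomato-positive (34.6 ± 32.1) to jugular capsaicin (0.0993 ± 0.0815). The pools of the first and second groups in this order overlapped, and those of every later pair of neighbours did not. The order of the nodose groups depended on the scaling. With plain totals the means were 351 CPM in nodose capsaicin, 355 CPM in tdTomato-positive and 286 CPM in tdTomato-negative nodose neurons, and the pools of these 3 groups overlapped. The nodose pools stayed above the jugular ones with plain totals, at 229 CPM or more against 80.8 CPM or less.

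In the Trpv1 selection the summed counts of S1pr3 gave an 8.09-fold higher level in nodose neurons (109231 against 16264 counts, 95% exact counting interval 7.96 to 8.23, which covers counting error only). The log2 fold change was 2.98 (SE 0.85), and it was 2.24 without jugular pool 2 and 4.49 without jugular pool 1. It did not pass the call rule in edgeR's quasi-likelihood test (Benjamini-Hochberg adjusted p = 0.321) or in DESeq2 (3.02, SE 1.64, adjusted p = 0.249). In the capsaicin selection the level was 4659-fold higher in nodose neurons (19345 against 5 counts, interval 1996 to 14351). There the log2 fold change was 11.85 (SE 1.40), with an adjusted p of 0.162 in edgeR, above the threshold of 0.1, and of 2.28e-05 in DESeq2, which called it. With the replicate number as a block, edgeR called it too (log2 fold change 11.80, adjusted p = 0.0631), although the numbers were not found to pair the pools. Leaving out 1 pool at a time gave adjusted p-values of 0.011 to 0.122, under 0.1 without nodose pool 1 (0.0905), jugular pool 1 (0.011) or jugular pool 2 (0.0438). The summed level of 12 markers of satellite glia and Schwann cells overlapped between the ganglia in both selections. It was 3632 to 3677 CPM in nodose against 3018 to 4072 CPM in jugular tdTomato-positive pools, and 1743 to 2292 against 1623 to 1893 CPM in the capsaicin pools. S1pr3 shares 45 exon bases with Gm32834, a noncoding gene on the opposite strand that has no row of its own in the counts, and whether counting used strand is not stated.

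The size of the S1pr3 difference was itself compared between the selections. The interaction of ganglion and selection gave a log2 difference of 8.92 (SE 1.55, edgeR adjusted p = 0.265) and of 9.35 (SE 1.98, DESeq2 adjusted p = 7.5e-05). DESeq2 called it and edgeR did not. S1pr3 had 13309 and 2955 counts in the tdTomato-positive jugular pools and 4 and 1 counts in the jugular capsaicin pools. Depth, strain, core and the manner of picking cells differ between the selections and cannot be told apart from it. In these bulk pools, fewer cells with the gene and less of its RNA per cell cannot be told apart either.

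S1pr2, which acts largely through G12/13, varied more between the 2 pools of a group than between the ganglia in the Trpv1 selection. It lies on chromosome 9 from 20962361 to 20976781. Its level was 0 and 12.2 CPM in the tdTomato-positive nodose pools and 0.0431 and 21 CPM in the tdTomato-positive jugular pools. It was 42.3 and 13.8 CPM in the jugular capsaicin pools, and at most 0.117 CPM, or 2 counts, in the nodose capsaicin pools. In both tdTomato-negative pools it was at or under 1 count. The capsaicin pools of the ganglia therefore did not overlap, and those of the Trpv1 selection did. The ratio of jugular to nodose was 390 in the capsaicin selection (1409 against 3 counts, 95% exact counting interval 133 to 1893). Its log2 fold change of -8.75 (SE 3.24) had an adjusted p of 0.352 in edgeR, whereas DESeq2 called it (-8.78, SE 2.54, adjusted p = 0.00473). In the Trpv1 selection the value was -0.78 (SE 3.75, edgeR adjusted p = 0.989), and it turned to 7.12 without jugular pool 2, to 0.22 without nodose pool 1 and to -14.22 without nodose pool 2.

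S1pr4, a receptor known from lymphocytes, was low but present in all 6 pools of the Trpv1 selection. It stood at 3.18 and 2.12 CPM in the tdTomato-positive nodose pools, at 2.29 and 1.54 CPM in the tdTomato-positive jugular pools and at 3.84 and 2.89 CPM in the tdTomato-negative pools. None of the 4 capsaicin pools had more than 3 counts of it, which at their depth allows up to 0.118 to 0.176 CPM. The lymphoid and myeloid marker Ptprc was at 0 in all 10 pools. Nodose and jugular tdTomato-positive neurons differed by a log2 fold change of 0.46 (SE 1.89, edgeR adjusted p = 0.985), and their pools overlapped.

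S1pr1, the Gi-coupled receptor of endothelium and lymphocytes, passed 3 counts in 2 pools, at 5.43 CPM in tdTomato-positive jugular pool 2 and at 1.55 CPM in tdTomato-negative pool 2. The 7 endothelial markers summed to 31.2 to 63.9 CPM in the 6 pools of the Trpv1 selection and to 11.8 CPM or less in the capsaicin pools. Most of this sum was Egfl7, at 60.5 and 28.7 CPM in the 2 pools that held S1pr1 and at 38.9 to 54.9 CPM in the other 4 of that selection. Kdr stood at 2.45 CPM in tdTomato-negative pool 2 and at 23 CPM in tdTomato-positive nodose pool 2. Cdh5 and Cldn5 were at 0 in all pools and Pecam1 had at most 3 counts. The part of endothelial RNA in the S1pr1 level was not tested. S1pr5, known from oligodendrocytes and natural killer cells, had 11 counts in tdTomato-positive nodose pool 1 (0.0566 CPM) and none elsewhere. It was therefore not detectable at this depth in 9 of 10 pools.

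**Figure D2:**
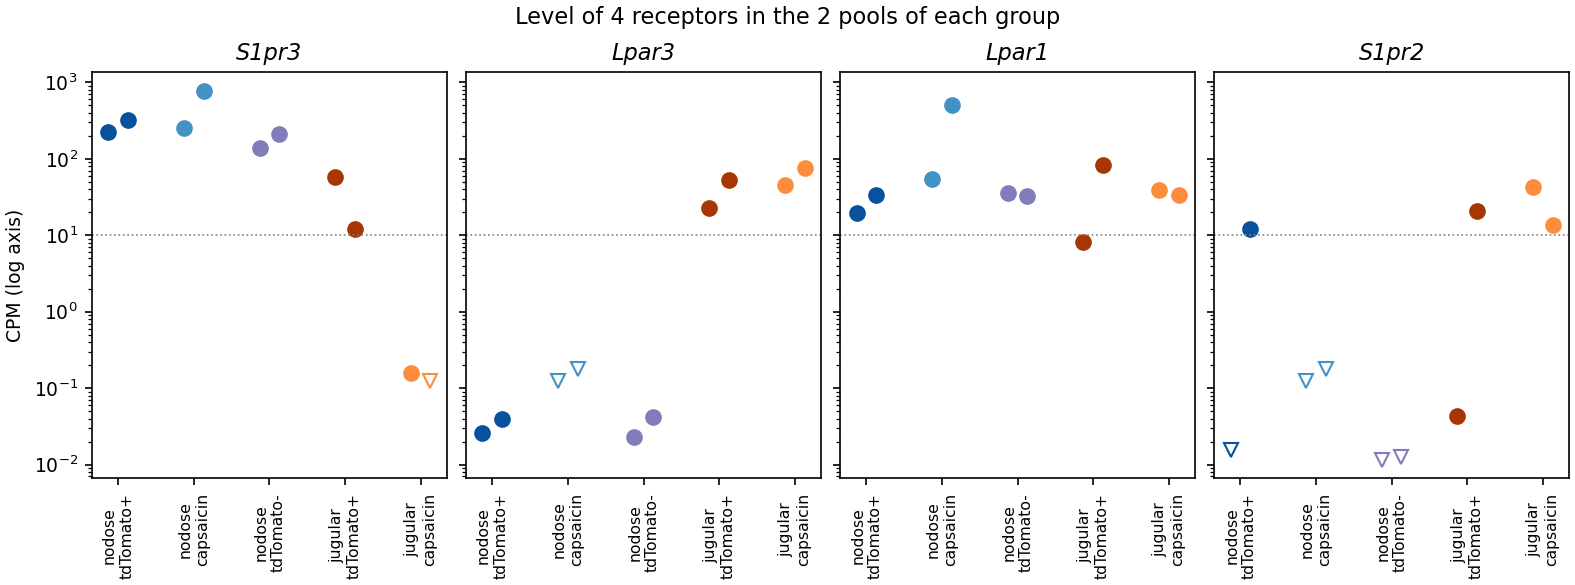
CPM on a log axis of the 4 receptors that reached 10 CPM (dotted line) in both pools of a group, with 1 point for each of the 2 pools of each group. Open triangles stand at the level of 3 counts for pools at or under it. S1pr3 and Lpar3 separated the nodose from the jugular pools in opposite directions, and Lpar1 and S1pr2 did not.

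Lpar3, a Gq- and Gi-coupled LPA receptor on chromosome 3 from 146220963 to 146286186 (+ strand), was found in the jugular neurons of both selections. It stood at 23 and 53.3 CPM in the tdTomato-positive jugular pools and at 45.3 and 75.8 CPM in the jugular capsaicin pools. The 6 nodose pools held 0 to 10 counts each, which is 0.0585 CPM or less. All jugular pools were thus above all nodose pools, whichever way the neurons had been picked. The jugular group means were 38.1 ± 21.4 CPM (SD, n = 2) and 60.6 ± 21.6 CPM, and the pools of these groups overlapped.

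In the Trpv1 selection the jugular level of Lpar3 was 1182 times the nodose level (18516 against 13 counts, 95% exact counting interval 691 to 2221). In the capsaicin selection it was 2469 times (2973 against 1 count, interval 443 to 97545). The fitted log2 fold changes, nodose over jugular, were -10.18 (SE 2.23) and -11.26 (SE 3.18) in edgeR and -10.16 and -11.47 in DESeq2. They rest on 13 and 1 nodose counts, so their size is uncertain. In edgeR the adjusted p-values were 0.321 and 0.352, and in DESeq2, which called both, 1.57e-08 and 0.00117. With the 8 pools of both selections in 1 fit, edgeR called Lpar3, at a log2 fold change of -10.68 (SE 2.12, adjusted p = 0.0849), and DESeq2 called it as well (-10.50, SE 0.98, adjusted p = 4.34e-24). The edgeR call was lost on leaving out any 1 of the 8 pools (adjusted p = 0.103 to 0.301, log2 fold change -11.05 to -10.23) and with the replicate number as a block (-10.78, adjusted p = 0.275). The interaction was -1.41 (SE 2.95, edgeR adjusted p = 1), so that a difference between the selections was not detected within an error of that size.

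Lpar1, a Gi-, Gq- and G12/13-coupled receptor that is also known from myelinating glia, was the 1 receptor present in all pools. It lies on chromosome 4 from 58435255 to 58553898 (- strand). It stood at 19.8 and 33.4 CPM in the tdTomato-positive nodose pools, at 8.17 and 82.6 CPM in the tdTomato-positive jugular pools, and at 35.6 and 32.5 CPM in the tdTomato-negative pools. In the capsaicin selection it stood at 54.7 and 506 CPM in the nodose pools and at 39.2 and 33.7 CPM in the jugular pools. The 2 tdTomato-positive jugular pools enclosed the tdTomato-positive nodose ones, and nodose capsaicin pool 2 stood far above all others. No comparison passed the call rule. The log2 fold change was -0.78 (SE 1.42, edgeR adjusted p = 0.945) between the tdTomato-positive pools and 2.46 (SE 1.24, adjusted p = 0.53) between the capsaicin pools, where it was 0.41 without nodose pool 2. In the Trpv1 selection it turned to 1.69 without jugular pool 2. The glial marker Sox10 was at 0 in all 4 capsaicin pools. The summed level of the glial markers overlapped between these groups, as given above. The part of glial RNA in the Lpar1 level was not tested.

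Lpar4 and Lpar5, receptors of another branch of the family, were each found in a single jugular capsaicin pool. Lpar4, on the X chromosome, stood at 51.4 CPM (1309 counts) in pool 1 and at 0 in pool 2, and 2 nodose capsaicin pools held 1 and 2 counts of it. Lpar5 stood at 14.8 CPM (355 counts) in pool 2 and had no count in any other pool. In the capsaicin selection DESeq2 gave log2 fold changes of -8.64 for Lpar4 (adjusted p = 0.0316) and -23.34 for Lpar5 (adjusted p = 1.33e-08). Each value rests on 1 jugular pool, and neither gene was called, since no group had 10 CPM or more in both pools. In the 6 deeper pools of the Trpv1 selection neither gene had a count. Pool 1, which held Lpar4, also had the highest level of the fibroblast marker Dcn, at 239 CPM against 17 CPM in pool 2, and the 6 fibroblast markers summed to 239 and 41.6 CPM in these pools, while Col1a1, Col3a1 and Pdgfra were at 0 in both. The part of other cells in this level was not tested. Lpar2 had 7 counts in tdTomato-negative pool 1 and none elsewhere.

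Since longer transcripts collect more counts, levels of different receptors were compared per kilobase of merged exons. On this scale S1pr3 was the highest of the 10 receptors in 7 pools, all 6 nodose pools and tdTomato-positive jugular pool 1, and Lpar3 was the highest in the other 3. S1pr3 made 87.7% and 89.3% of the summed level per kb of the 10 receptors in the tdTomato-positive nodose pools, 81.6% and 59.6% in the nodose capsaicin pools, and 75.9% and 83.6% in the tdTomato-negative pools. In the jugular pools it made 51.3% and 5.5% (tdTomato-positive) and 0.0781% and 0.0186% (capsaicin). Lpar3 made 37.2% and 44.5% of the sum in the tdTomato-positive jugular pools and 40.9% and 61.3% in the jugular capsaicin pools, and at most 0.0297% in any nodose pool. The 5 LPA receptors together made 8.3% to 40.4% of the sum in nodose pools and 44.8% to 96.4% in jugular pools. The ganglia therefore did not overlap in this share.

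**Figure D3:**
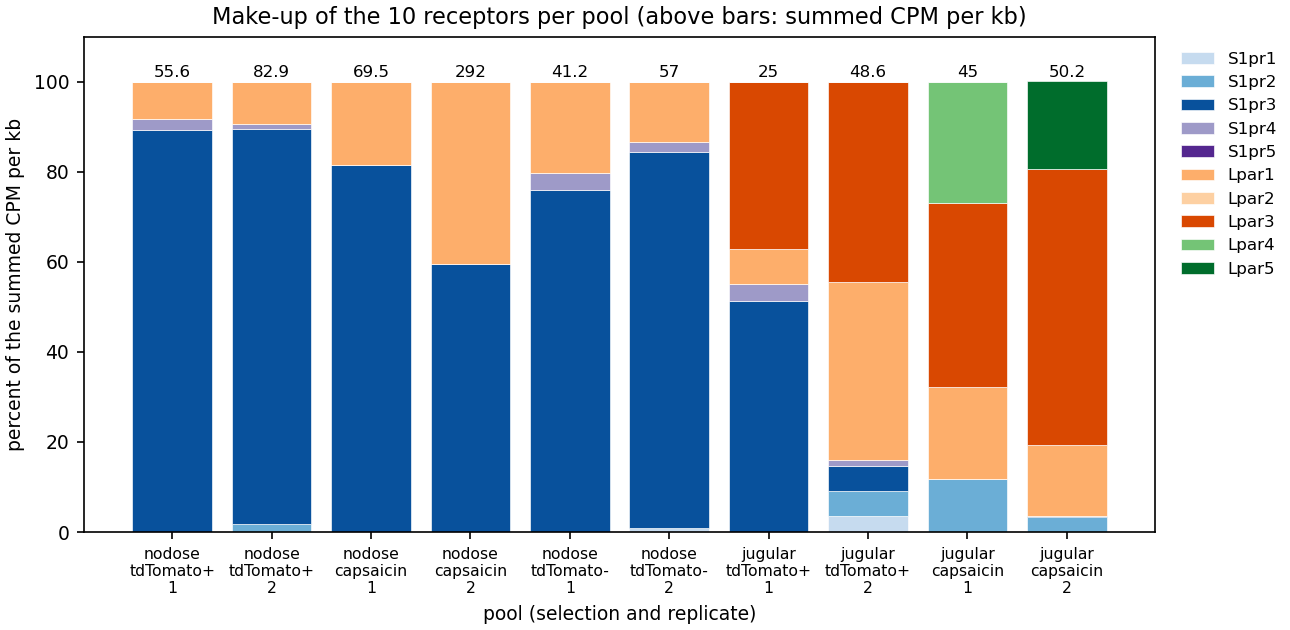
Percent of the summed CPM per kb of the 10 receptors that each receptor made in each pool, with the summed CPM per kb above each bar. S1pr3 made 59.6% or more of every nodose bar, and the LPA receptors made 44.8% to 96.4% of the jugular bars.

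Each comparison was read against the share of all tested genes that it called. A gene was called at an adjusted p of 0.1 or less, where it also differed 2-fold or more and had 10 CPM or more in both pools of 1 group. In the Trpv1 selection edgeR called none of the 5 receptors it tested, against 0.318% of 10990 genes, and DESeq2 called 1 of 6 (Lpar3), against 3.84%. In the capsaicin selection edgeR called none of the 4 receptors tested and 0% of 8181 genes, although 1150 genes and 3 of the receptors (S1pr2, S1pr3 and Lpar3) had an unadjusted p under 0.05. DESeq2 called 3 of 6 receptors there (Lpar3, S1pr2 and S1pr3), against 6.58% of genes. With both selections in 1 fit edgeR called 1 of 5 receptors against 0.577% of 11959 genes, and DESeq2 called 2 of 8 (Lpar3 and S1pr3) against 8.13%. For the interaction edgeR called none of 5 receptors and 0% of genes, with 1233 genes and 1 receptor at an unadjusted p under 0.05, and DESeq2 called 1 of 8 (S1pr3) against 8%. The pools of the ganglia did not overlap for 2 of 5 tested receptors in the Trpv1 selection and for 4 of 4 under capsaicin selection, against 42.1% of all tested genes in each. With 2 pools against 2, an exact permutation test of a single gene cannot give a p below 0.333. The median log2 fold change of the tested receptors was -0.78 in the Trpv1 selection and -3.15 with capsaicin selection, beside 0.03 and -0.02 over all tested genes.

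**Figure D4:**
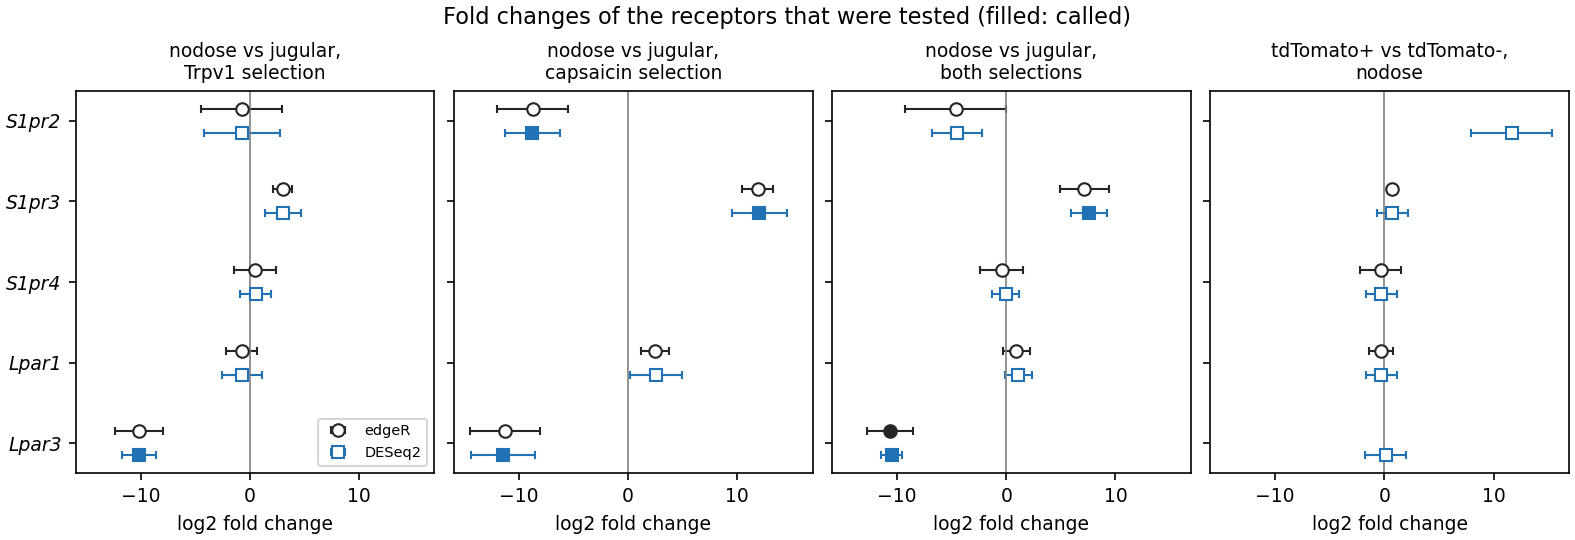
Log2 fold change with its SE for the 5 receptors that edgeR tested in at least 1 comparison, by edgeR (circles) and DESeq2 (squares), with filled symbols for those called. Positive values are higher in the group named first. Lpar3 lay between -11.47 and -10.16 in all nodose to jugular comparisons, and S1pr3 between 2.98 and 12.02.

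The tdTomato-negative nodose neurons, which the study set beside the positive ones, held the same receptors above 10 CPM in both pools, S1pr3 and Lpar1, and this comparison shares its tdTomato-positive nodose pools with the one above. No receptor was called by edgeR (0 of 3 tested, against 0.0527% of 11386 genes) or by DESeq2 (0 of 8, against 2.76%), and at an unadjusted p under 0.05 edgeR had 1264 genes and none of the receptors. S1pr3 was 1.57-fold higher in the positive pools (log2 fold change 0.67, SE 0.38, edgeR adjusted p = 0.666). Its pools did not overlap, as for 40.7% of all tested genes, with 222 CPM as the lowest positive and 213 CPM as the highest negative value. With plain totals these pools stood at 279 and 343 CPM, and the groups overlapped. Lpar1 differed by -0.33 (SE 1.09, adjusted p = 0.991) and S1pr4 by -0.32 (SE 1.88, adjusted p = 0.995). Lpar3 was at 13 counts in the positive and 16 counts in the negative pools. S1pr2 had 2495 counts in 1 positive pool and 1 count in the negative pools together, so DESeq2 gave it an adjusted p of 0.014 without a call, since the other positive pool had none. By contrast Trpv1, which sorted these pools, was above 100 CPM in the positive pools and under 0.1 CPM in the negative ones.

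The genes whose levels followed the 4 best-expressed receptors most closely over the 10 pools were listed among 7504 genes that had 10 CPM in both pools of a group, by Pearson r of log2(CPM + 1), as a description. For Lpar3 they were Gm11549 (r = 0.996), Gna14 (0.994) and St3gal6 (0.991). Gna14, which encodes a Gq-class G protein α subunit, stood at 120 to 152 CPM in tdTomato-positive and 293 to 343 CPM in capsaicin jugular pools, and at 0.234 CPM or less in all nodose pools. For S1pr3 they were Cidea (0.956), Pstpip1 (0.954) and Ptgir (0.954). Ptgir, the prostacyclin receptor, stood at 41.4 to 426 CPM in nodose pools, at 18.2 and 18.7 CPM in tdTomato-positive jugular pools and at 0.118 and 0.125 CPM in jugular capsaicin pools. Its tdTomato-positive (41.4 and 88.1 CPM) and tdTomato-negative (63.4 and 131 CPM) nodose pools overlapped. For Lpar1 the nearest genes were Rbm25 (0.9), Pcmt1 (0.891) and Tcta (0.877), and for S1pr2 Zfp783 (0.982), Nkap (0.935) and Fchsd2 (0.912). The points share libraries, depth and size factors, and many genes that separate the ganglia have a high r with one another.

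The enzymes and carriers that set the amount of each lipid were present at low and uneven levels. Of 13 genes of S1P metabolism, 5 reached 10 CPM in both pools of a group and 3 were above 3 counts in all pools (Sphk2, Sgpp2 and Asah1). The 2 of highest mean CPM were Asah1, acid ceramidase, which releases sphingosine, at 0.459 to 329 CPM, and Sgpp2, an S1P phosphatase, at 4.27 to 208 CPM. The kinase Sphk1 was at 30.9 and 0.0245 CPM in the tdTomato-positive nodose pools, at 39.7 and 42.7 CPM in the tdTomato-negative ones and at 0 in all 4 capsaicin pools. None of the list was called by edgeR in any comparison, where it called at most 0.577% of all tested genes. Its median log2 fold change was 0.25 over 11 tested genes in the Trpv1 selection and 0.12 over 8 with capsaicin selection. Over all tested genes the medians were 0.03 and -0.02. DESeq2 called Sgpp1, an S1P phosphatase, in the capsaicin selection (log2 fold change -7.99, adjusted p = 0.00845). That was 1 of 11 tested genes of the list, against 6.58% of all genes. Sgpp1 stood at 34.3 and 31.3 CPM in the jugular capsaicin pools and at 0.0417 and 0.293 CPM in the nodose ones, while the tdTomato-positive pools of the ganglia overlapped.

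Of 11 genes of LPA metabolism, 6 reached 10 CPM in both pools of a group and 2 were above 3 counts in all pools (Lpin1 and Agpat1). By mean CPM Lpin1, a phosphatidate phosphatase, led at 10.8 to 151 CPM, and Plpp1 (Ppap2a in the files), a lipid phosphatase that can clear LPA, was next at 0 to 81.6 CPM. Enpp2, which encodes autotaxin, stood at 37.7 and 27.1 CPM in the tdTomato-negative pools, at 8.38 and 0.0049 CPM in the tdTomato-positive nodose pools and at 102 and 0.0585 CPM in the nodose capsaicin pools. All 4 jugular pools held 0.0417 CPM or less of it. For Enpp2 the pooled log2 fold change was 9.56 (SE 3.46, edgeR adjusted p = 0.356). DESeq2 gave 9.75 (SE 2.17, adjusted p = 9.69e-05) without a call, since no group compared had 10 CPM or more in both pools. No gene of the list was called by edgeR, which called at most 0.577% of all tested genes in any comparison. DESeq2 called Plpp2 (Ppap2c in the files) in the Trpv1 selection (6.49, adjusted p = 0.0194), where it stood at 39.8 and 70.4 CPM in nodose and at 0.0129 and 1.24 CPM in jugular pools, and Lpin2 toward jugular in the fit over both selections (-4.27, adjusted p = 0.0258). Those calls were 1 of 9 and 1 of 10 tested genes of the list, against 3.84% and 8.13% of all genes. Of both metabolic lists, DESeq2's interaction test called Sgpp1 (-9.33), Plpp2 (-30.00, a fit that rests on pools at 0) and Lpin2 (-5.89). That was 1 of 13 S1P and 2 of 10 LPA genes tested, against 8% of all genes.

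**Figure D5:**
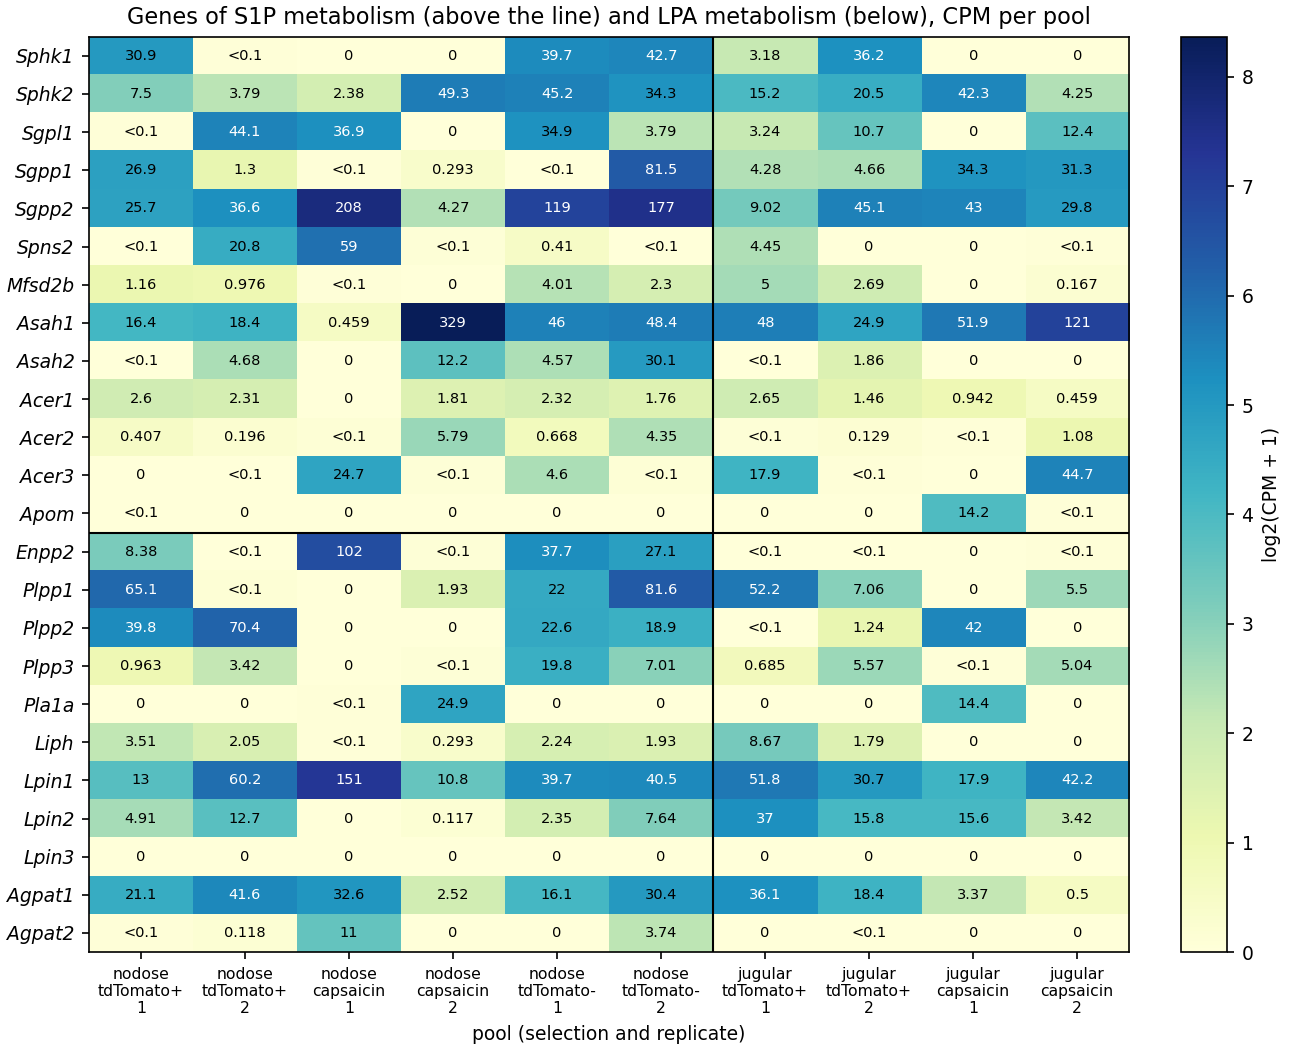
Level of 13 genes of S1P metabolism and 11 genes of LPA metabolism in each pool, as log2(CPM + 1) in colour with the CPM written in the cell, nodose pools left of the vertical line. Asah1 ranged from 0.459 to 329 CPM between the 2 nodose capsaicin pools, and Sphk1 was at 0 in the 4 capsaicin pools.

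The G proteins and effectors through which these receptors signal were broadly present. Of 19 genes, 17 reached 10 CPM in both pools of a group and 10 were above 3 counts in all pools. By mean CPM over the 10 pools, which takes no account of gene length, the leading genes were Gnao1, at 174 to 743 CPM, and Gnaq, the α subunit of Gq, at 35.5 to 703 CPM. Gnaq stood at 35.5 to 110 CPM in the Trpv1 selection and at 403 to 703 CPM in the capsaicin pools, and Gnai2, a Gi α subunit, at 176 to 269 and 72.7 to 107 CPM. Plcb2 stood at 0 in all pools. None was called by edgeR, against 0.577% of all tested genes at most. The median log2 fold change was -0.10 for the Trpv1 selection and 0.54 for the capsaicin one, beside 0.03 and -0.02 over all tested genes. DESeq2 called Rock2, a kinase that acts on the cytoskeleton, toward nodose in the capsaicin selection (7.03, adjusted p = 0.0582) and over both selections (5.03, adjusted p = 0.0151). Each time that was 1 of 18 tested genes of the list, against 6.58% and 8.13% of all genes. Rock2 stood at 12.3 and 201 CPM in nodose and at 1.26 and 0 CPM in jugular capsaicin pools, and at 185 and 134 CPM in tdTomato-positive nodose and 25.2 and 25.7 CPM in tdTomato-positive jugular pools. DESeq2 also called Gna12, the α subunit of G12, lower in tdTomato-positive than in tdTomato-negative nodose neurons (-11.03, adjusted p = 5.39e-08). It stood at 23.6 and 55.9 CPM in the negative pools and at 0.0309 and 0.0049 CPM in the positive ones. This call was 1 of 18 tested genes of the list, against 2.76% of all genes. Of the related receptors, P2ry10 was at 0 in all pools and Lpar6 passed 3 counts in 3 pools, at 29 CPM in jugular capsaicin pool 1 and at 0.22 and 13.2 CPM in the tdTomato-negative pools.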

How the data were processed

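The authors sequenced cDNA made with the SMARTer Ultra Low Input kit, aligned the reads to mm10 with TopHat2 (2.0.9) and Bowtie2 (2.1.0.0) after base calling with CASAVA (1.8.2), and deposited raw counts per gene symbol from HTSeq for each of the 10 pools. The annotation used for counting and its strand setting are not given in the sources used here. Groups came from the sample labels. The receptors, lists and tests were chosen with earlier results of these data known.

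Counts were tested with edgeR 4.0.16 (TMM, filterByExpr, glmQLFit and glmQLFTest) in R 4.3.3 over all genes that passed the filter, with Benjamini-Hochberg adjustment, and with DESeq2 1.42.0 as an alternative, where an adjusted p given as NA was left out. A gene was called at an adjusted p of 0.1 or less, where it also differed 2-fold or more and had 10 CPM or more in both pools of 1 group, with CPM from DESeq2 size factors within the comparison. Levels used size factors over all 10 pools. All 10 receptors are named, with, from each list, genes called in any comparison by either tool, the 2 of highest mean CPM and a few added after their values were seen (Sphk1, Enpp2, Lpar6, and genes at 0 or above 3 counts in all pools). Lists were described by counts, without a test. Positions and coding sequences came from GENCODE vM21 (GRCm38) and were aligned with MAFFT 7.526. The fits were tested on simulated data. Replicate numbers did not pair the pools (r = -0.00744 to 0.0147 over genes), and no replicates were duplicates (chi-square per degree of freedom 460.7 or more). In the files 27 rows carry month-like symbols. None is a receptor. A few genes of the lists are not reported here.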

Additional observations from a re-analysis of the deposited data

Results flagged for a closer look

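The nodose to jugular difference of S1pr3 was larger in the capsaicin selection than in the Trpv1 selection by 9.35 on the log2 scale in DESeq2's interaction test (adjusted p = 7.5e-05), while edgeR gave 8.92 with an adjusted p of 0.265. Nodose pools were above jugular pools in both selections. Mean levels were 273 against 34.6 CPM in the Trpv1 selection and 515 against 0.0993 CPM in the capsaicin selection. On leaving out 1 pool at a time, edgeR gave adjusted p-values of 0.0217 without tdTomato-positive jugular pool 2, 0.0383 without nodose capsaicin pool 1 and 0.144 to 0.786 in the other 6 fits. With the replicate block it was 1. The selections also differed in depth, strain, sequencing core and the way cells were picked, and these cannot be told apart. Groups of 2 pools allow no check for outlying pools.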

How the results depend on the processing

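DESeq2 called many more genes than edgeR: 510 against 35 in the Trpv1 selection (1 receptor against 0), 707 against 0 in the capsaicin selection (3 against 0), 390 against 6 between tdTomato-positive and tdTomato-negative neurons, 1120 against 69 over both selections (2 against 1) and 1053 against 0 for the interaction (1 against 0). Without the filter on low counts edgeR called 59, 122 (1 receptor), 10, 222 (2) and 95 (1) genes in the same order. With the replicate block it called 13, 20 (1 receptor), 1 and 41 (0) genes in the first 4 comparisons, and no other receptor call changed in this paired fit. Putting the 6 pools of the Trpv1 selection in 1 fit gave 71 genes between the ganglia and 15 for the tdTomato comparison. In edgeR, DESeq2 size factors and no CPM minimum changed no receptor call. Dropping the minimum was not run for DESeq2, where the minimum alone withheld some receptor calls. In the Trpv1 selection this was S1pr1 (DESeq2 adjusted p = 0.0347), and in the tdTomato comparison S1pr2 (0.014). In the capsaicin selection it was Lpar4 (0.0316) and Lpar5 (1.33e-08). Over both selections it was S1pr1 (0.0239), Lpar4 (0.0367) and Lpar5 (8.02e-10). On leaving out 1 pool at a time, edgeR called 0 to 0 genes and 0 to 0 receptors in the Trpv1 selection, 0 to 29 and 0 to 1 in the capsaicin selection, 0 to 0 for the tdTomato comparison, 38 to 89 and 0 to 1 over both selections, and 0 to 195 and 0 to 1 for the interaction. The direction turned only for uncalled receptors in such fits: S1pr2 (-14.22 to 7.12) and Lpar1 (-1.66 to 1.69) in the Trpv1 selection, Lpar1 (-0.75 to 0.02) in the tdTomato comparison, S1pr4 (-0.84 to 1.12) and Lpar1 (-0.21 to 2.16) over both selections, and S1pr2 (-15.92 to 4.33) and S1pr4 (-6.32 to 3.76) for the interaction. S1pr3 and Lpar3 kept their direction in every fit run. The cause of these changes was not tested, and a leave-one-out fit also has fewer pools. Plain totals moved 9 of 26 group means by more than 1 SD. At the depth of the capsaicin selection a level under 0.118 CPM was not detectable.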
